A study of Mus musculus with 12 samples.

Results

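The genes described here are those that lay higher in refed than in fasted control mouse liver. A feature of the array was a member when its lowest value in the refed control livers exceeded its highest value in the fasted control livers and the difference between the means of those groups was 0.6 or more on the log2 scale. Of 23238 features, 226 met this rule, which is 0.973%. The choice used the 6 control arrays alone. The 6 arrays of livers without FoxO1, FoxO3 and FoxO4 took no part in it, and they carry the questions asked here: whether the members already lay at the refed level in fasted knockout liver, and whether they were higher in refed than in fasted knockout liver.

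FoxO proteins are transcription factors of the forkhead class. In fasted liver they sit in the nucleus and take part in switching on glucose production genes. After a meal, insulin acts through the kinase Akt, which phosphorylates FoxO proteins and sends them out of the nucleus. Loss of hepatic FoxO is therefore often compared with the fed state, and a gene held down by FoxO in fasting would be one whose level in fasted knockout liver is already that of refed liver.

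Total RNA of whole liver was measured on 1-colour arrays in 4 groups of 3 samples. WT mice were littermate controls, and L-FoxO1,3,4 mice (called knockout below) lacked FoxO1, FoxO3 and FoxO4 in hepatocytes only, so that other liver cells kept these genes. Each genotype was studied after 22 h of fasting (WT fasted, L-FoxO1,3,4 fasted) and after 4 h of refeeding (WT refed, L-FoxO1,3,4 refed). All mice shared a mixed C57BL/6J and 129 background. Neither age, sex and diet nor the Cre driver is stated in the labels.

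Each value is a log2 signal, 1 per feature and array, and a difference of 1 is a doubling of the signal. The 12 arrays had medians between 5.79 and 5.9. Each array's correlation with its nearest other array was 0.987 to 0.989 over all features, except for L-FoxO1,3,4 refed replicate 1, where it was 0.976. WT refed replicate 1 was alone in a high value of S100a8, a gene of neutrophils, at 5.08 against 2.90 to 3.28 in the other arrays. In bulk liver RNA, fewer cells of a type and less RNA per cell cannot be told apart.

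The features of the targeted genes differed little between genotypes. Foxo1 was 9.53, 9.65 and 9.48 in WT fasted, 9.04, 9.02 and 8.84 in WT refed, 9.18, 9.33 and 9.41 in fasted knockout, and 8.47, 8.35 and 8.91 in refed knockout liver. Foxo3 had group means of 8.04, 7.91, 7.90 and 7.78, and Foxo4 of 7.24, 6.12, 7.07 and 6.28, in the same order. Which exons were removed and which the probes read is not stated, so these values do not check the deletion. None of the 3 was a member.

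The platform annotation paired 118 of the 226 members with 1 gene symbol (0.79% of all one-symbol features) and the other 108 with several or none (1.3% of all such features). Genes are named below from the 118. The 8 lists of fatty acid, cholesterol, glucose, ribosome, protein folding and circadian genes held 104 features, of which 1 (Pdk4) was a member, or 0.962%, about the share of all features. Over the 104 features, 7 lay higher and 12 lower in every refed than every fasted WT array. Of the 21 fatty acid and triglyceride synthesis features, 3 lay higher and 0 lower. Of the 13 of the glucose production list, 1 lay higher and 5 lower, and Foxo1, Foxo3 and Foxo4 were among the 5. Single genes varied. Fasn, the fatty acid synthase that feeding normally induces, had a mean of 10.15 in WT fasted and 9.77 in WT refed liver. Pck1, a glucose production gene normally lowered by feeding, had means of 12.87 and 12.88. The members are therefore described by their rule and not by a fed-state name.

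Just inside the limit of 0.6, the 5 members with the smallest WT difference ran from 0.602 to 0.605, and their difference in knockout liver ran from -0.47 to 0.92 with a median of -0.09. The 5 non-overlapping features just outside it had WT differences of 0.597 to 0.60, and knockout differences of -0.84 to 0.24 with a median of -0.08. Without a minimum difference, 5.18% of all features lay higher in every refed than every fasted WT array. Of these, 977 differed by less than 0.6. Another 245 features differed by 0.6 or more but overlapped. With 3 arrays per group, a share near 5.18% would also arise without a feeding difference. With limma and Benjamini-Hochberg adjustment over all features, 0 of 23238 (0%) were called between refed and fasted WT liver at adjusted p under 0.05.

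In knockout liver the members lay higher in refed than in fasted arrays more often than all features did. The refed mean exceeded the fasted mean for 148 of 226 members (65.5%), against 40.3% of all features. The median refed minus fasted difference of the members was 0.15 in knockout liver, with quartiles of -0.10 and 0.48, and over all features it was -0.05. In the WT livers that chose them the members' median difference was 0.81, a value that the rule itself set high, so the sizes in the genotypes are not compared. For 33 members (14.6%) all 3 refed knockout arrays lay above all 3 fasted knockout arrays, against 3.5% of all features. The reverse order held for 6 members (2.65%), against 9.33% of all features, and for the other 187 the arrays overlapped.

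No single member passed the test of this difference. With limma and Benjamini-Hochberg adjustment over all features, 0 of 23238 features (0%) and 0 members had an adjusted p under 0.05, and the smallest adjusted p was 0.37. At an unadjusted p under 0.05, limma gave 36 members higher in refed knockout liver (15.9%), against 1.67% of all features, and 6 lower (2.65%), against 7.93%. The spread in this test comes partly from the WT arrays that chose the members.

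**Figure D1:**
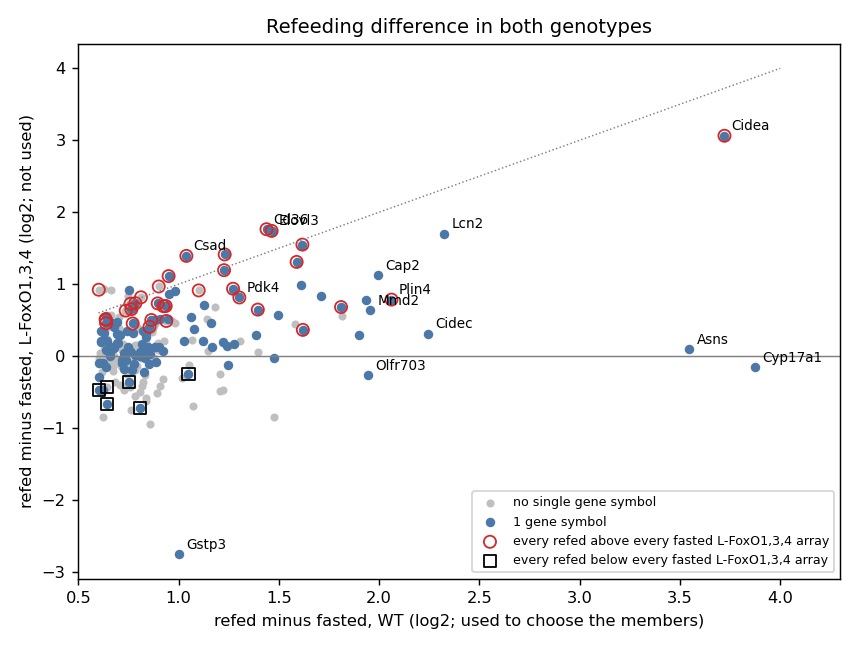
Refed minus fasted log2 difference of each of the 226 members in WT liver (horizontal axis, used to choose them) and in L-FoxO1,3,4 liver (vertical axis, not used), with the dotted line marking equal differences. Red rings mark the 33 members with every refed above every fasted L-FoxO1,3,4 array and black squares the 6 in the reverse order; Cidea lies near the line, and Asns and Cyp17a1 lie near 0 on the vertical axis.

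The members with larger WT differences were higher in refed knockout liver more often. Among the 41 one-symbol members with a WT difference of 1 or more, 14 (34.1%) had every refed above every fasted knockout array and 1 had the reverse, against 3.23% and 10.8% of all one-symbol features, and their median knockout difference was 0.57. Among the 77 with a WT difference under 1, 9 (11.7%) lay in the first order and 4 in the reverse, with a median of 0.12. The 108 members without a single symbol had a median of 0.05, and 10 of them (9.26%) lay in the first order, against 3.98% of all such features, and 1 (0.926%) in the reverse, against 6.62%. Among the 177 features (0.762% of all) chosen by the same rule turned round (lower in refed WT liver), the refed knockout arrays lay below the fasted ones for 58 (32.8%), and the median difference was -0.42.

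**Figure D2:**
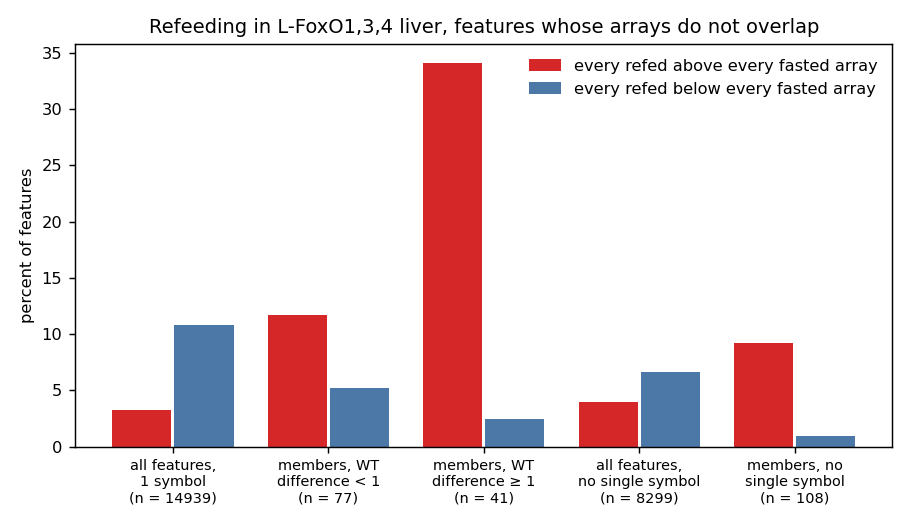
Percent of features whose refed and fasted L-FoxO1,3,4 arrays did not overlap, in either order, for all features and for members grouped by gene symbol and by WT difference. The bar for one-symbol members with a WT difference of 1 or more reaches 34.1%, against 3.23% of all one-symbol features.

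Fasted knockout liver did not lie at the refed level for most named members. Measured from the midpoint of the WT fasted and WT refed means, the median over the 118 one-symbol members was -0.40 in fasted knockout liver and -0.07 in refed knockout liver, so the fasted livers lay on the fasted side. Array by array the fasted knockout medians were -0.37, -0.45 and -0.50, close to the WT fasted medians of -0.58, -0.41 and -0.43. The refed knockout medians were -0.03, 0.02 and -0.32, all below the WT refed medians of 0.28, 0.44 and 0.50. Of the 118, 9 (7.63%) had a fasted knockout mean at or above the WT refed mean, 50 (42.4%) had one at or below the WT fasted mean, and 59 lay between. Over all 226 members the counts were 34, 63 and 129 (51% and 49.2% of all features met the first pair of orders), and the median from the midpoint was -0.18. The 108 members without a single symbol had a median of 0.08, close to the midpoint.

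**Figure D3:**
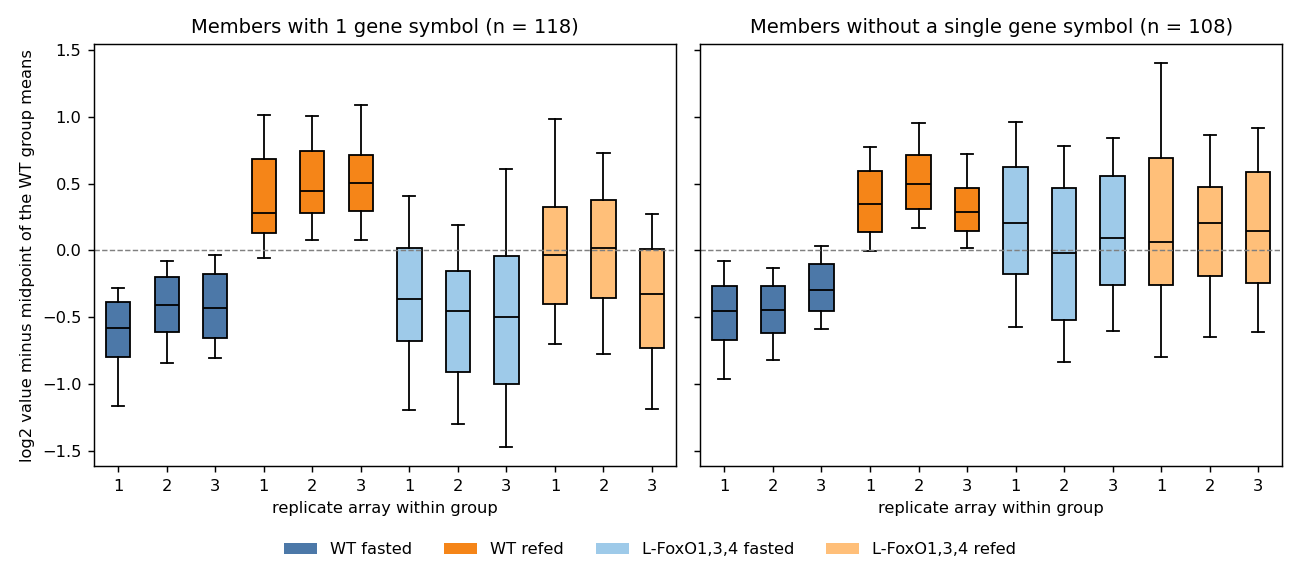
Distribution over members of the log2 value minus the midpoint of the WT group means, for each of the 12 arrays. Boxes span the quartiles with the median as a line, and whiskers the 10th to 90th percentiles; for one-symbol members the 3 fasted L-FoxO1,3,4 boxes lie mostly below the midpoint, and the WT boxes lie apart because the rule chose them so.

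Since the rule drew the WT groups apart, the WT level was also taken from arrays that had no part in the choice. The rule was applied 6 times, each time without 1 WT array, and the knockout means were compared with the array left out. For one-symbol members, the median fasted knockout mean minus the left-out WT fasted array was 0.09, -0.26 and -0.09 for replicates 1 to 3. Fasted knockout liver thus did not lie consistently on one side of the fasted WT level. Against the left-out WT refed arrays it was -0.26, -0.59 and -0.65, all below. Refed knockout liver minus the left-out WT refed arrays was -0.10, -0.38 and -0.38, also all below. The one-symbol members were set apart after the data were seen. Over all members the differences from the left-out WT refed arrays were smaller. Against the left-out WT refed arrays, fasted knockout liver lay at -0.08, -0.28 and -0.05, and refed knockout liver at -0.03, -0.17 and 0.002, so the refed values were not all below. Against the left-out WT fasted arrays, fasted knockout liver lay at 0.14, -0.06 and -0.03. Over all members it therefore did not lie clearly nearer to the fasted level. Over all features its values were 0.04, -0.02 and 0.02 against WT fasted arrays, and 0.03, -0.01 and 0.001 against WT refed arrays.

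**Figure D4:**
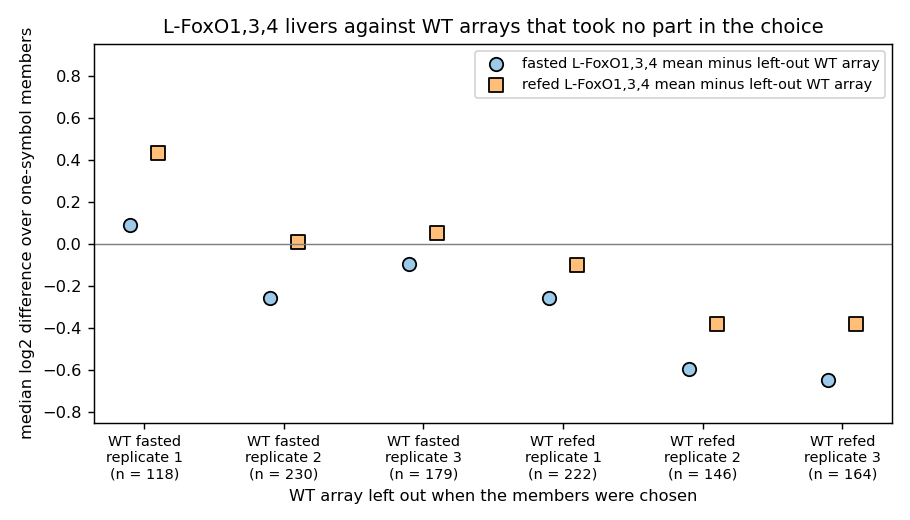
Median over one-symbol members of the fasted (circles) and refed (squares) L-FoxO1,3,4 mean minus the WT array left out when the members were chosen, on the log2 scale; n is the number of one-symbol members chosen without that array. Squares lie above circles in all 6 cases, and all symbols lie below 0 for the 3 left-out WT refed arrays.

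Genes of lipid handling, a group put together after the values were seen, had higher means in refed than in fasted knockout liver. It held 9 genes (Cidea, Cidec, Plin4, Cd36, Fabp4, Gpat3, Pltp, Elovl3 and Sptlc3). The refed knockout mean exceeded the fasted one for all 9, with differences from 0.06 to 3.06 and a median of 0.79, and the arrays did not overlap for 4. Over all one-symbol members, 75.4% had a higher refed knockout mean and 19.5% did not overlap in this order. Over all one-symbol features these shares were 37% and 3.23%. Since the values helped to form the group, its counts are a description. The fasted knockout mean lay below the WT midpoint for all 9. Among the 118 one-symbol members it lay above the midpoint for 21, so this order was common.

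Cidea encodes a lipid droplet protein that takes part in droplet fusion. Its log2 signal was 4.38, 4.04 and 3.78 in WT fasted liver, 5.03, 8.45 and 9.89 in WT refed liver, 4.50, 4.36 and 3.87 in fasted knockout liver, and 8.95, 7.51 and 5.46 in refed knockout liver. All 3 refed knockout livers lay above all 3 fasted ones, the fasted livers of both genotypes were alike in range, and refed livers of each genotype spread widely. The knockout difference was 3.06 (SE 1.10, n = 3 per group, limma adjusted p = 0.44), a signal 8.35 times as high.

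Cd36, a fatty acid uptake receptor, and Elovl3, an elongase of very long fatty acids, were among the 6 one-symbol members with the largest knockout differences. Cd36 was 9.48, 9.21 and 9.28 in WT fasted, 10.24, 10.82 and 11.23 in WT refed, 9.51, 8.71 and 7.80 in fasted knockout, and 11.17, 10.46 and 9.68 in refed knockout liver. Its knockout arrays did not overlap, with a difference of 1.76 (SE 0.45, n = 3 per group, limma adjusted p = 0.40), against 1.44 in WT. Elovl3 was 9.67, 10.19 and 10.85 in WT fasted, 10.91, 11.97 and 12.22 in WT refed, 9.78, 9.67 and 9.05 in fasted knockout, and 11.09, 11.62 and 11.01 in refed knockout liver. Its knockout difference was 1.74 (SE 0.38, n = 3 per group, limma adjusted p = 0.37), against 1.46 in WT, and every refed knockout array lay above every fasted one by more than 1. Whether the difference in knockout liver differed from that in WT liver was not tested. The WT difference chose the members, and these 2 are named for their large knockout difference, so the sizes are not compared.

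All 9 genes of the group had a lower refed mean in knockout than in WT liver, where the rule favoured high refed values. Of the 118 one-symbol members, 11 had a refed knockout mean at or above the WT refed mean. Plin4, a droplet coat protein, was 6.90, 7.67 and 6.52 in WT fasted, 8.94, 8.76 and 9.57 in WT refed, 6.43, 6.63 and 7.12 in fasted knockout, and 7.4, 7.79 and 7.35 in refed knockout liver. The knockout arrays did not overlap (difference 0.79, SE 0.31, n = 3 per group, limma adjusted p = 0.48), but all 3 refed knockout values lay below all 3 WT refed values. Cidec, a relative of Cidea that enlarges droplets, was 6.68, 7.13 and 7.77 in WT fasted, 8.13, 9.47 and 10.71 in WT refed, 8.62, 7.09 and 7.03 in fasted knockout, and 9.18, 7.78 and 6.71 in refed knockout liver, and the knockout groups overlapped (difference 0.31). The adipocyte hormones Adipoq and Lep, looked up after the values were seen, lay at 3.09 to 3.64 and 3.10 to 3.34 over all 12 arrays. The refed Adipoq values lay below the fasted ones in knockout liver without overlap, and overlapped them in WT liver. Of the lipid droplet genes looked up in the same way that are not members, Plin5, Plin2 and Plin1 had knockout differences of -0.20, -0.09 and -0.06.

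**Figure D5:**
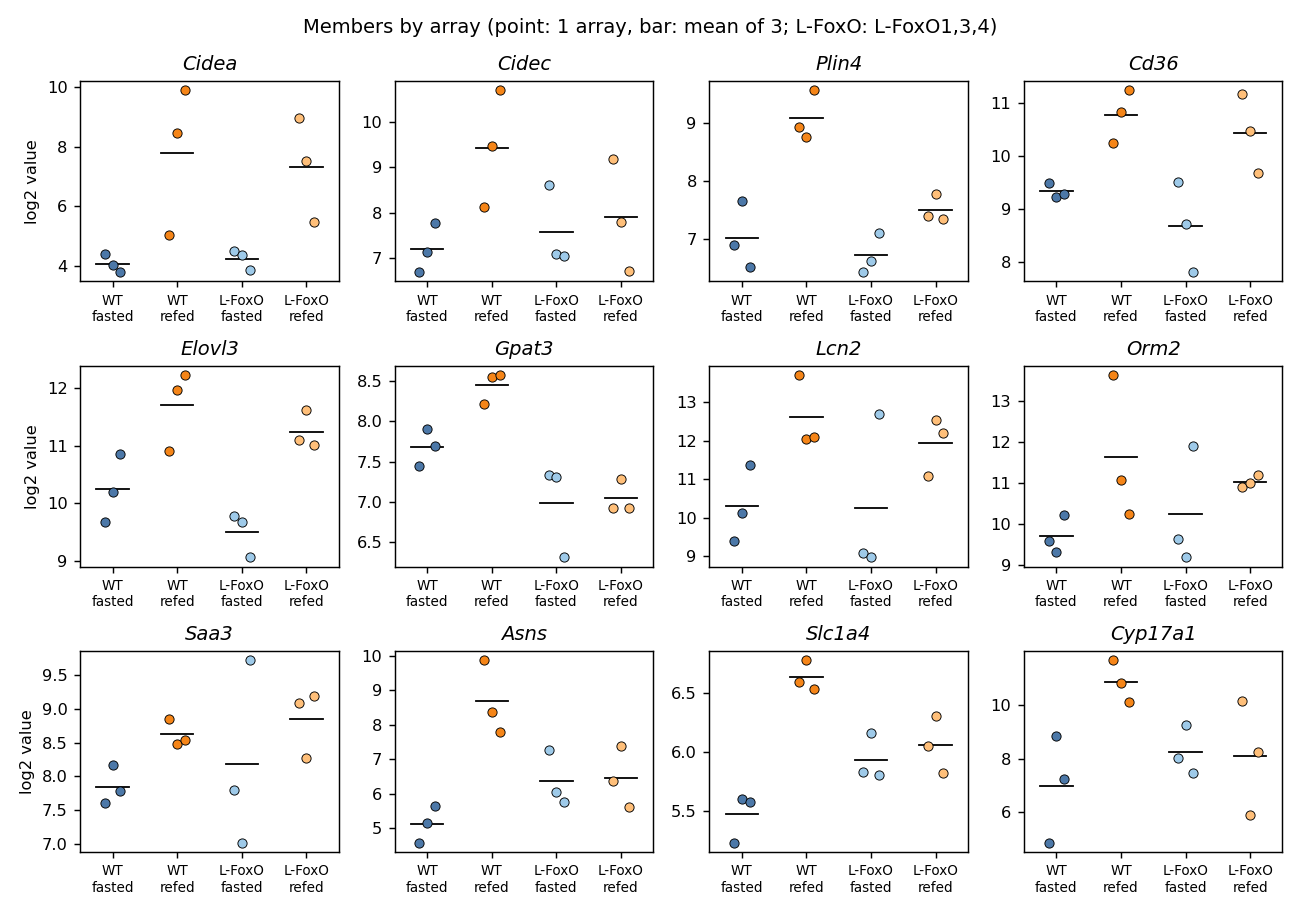
Log2 signal of 12 members in every array (points) with the mean of 3 (bar), by group, each panel with its own scale. Cidea, Cd36 and Elovl3 lie higher in refed livers of both genotypes, and Asns and Cyp17a1 lie higher in WT refed liver with overlapping L-FoxO1,3,4 groups.

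Further members with large knockout differences have varied roles. Gprc5b, an orphan receptor, was 4.74, 4.55 and 4.69 in fasted and 7.44, 6.24 and 4.96 in refed knockout liver, a difference of 1.55. St3gal6, a sialyltransferase, was 6.44, 6.53 and 6.61 in fasted and 8.86, 7.74 and 7.21 in refed knockout liver, a difference of 1.41. Csad, which makes the taurine precursor hypotaurine, was 8.89, 8.71 and 8.33 in fasted and 9.33, 10.70 and 10.08 in refed knockout liver, a difference of 1.39. In all 3 genes the fasted and refed knockout arrays did not overlap, and the highest refed value of Gprc5b and St3gal6, as of Cidea and Cd36, was in replicate 1, the array that correlated least with the others. Gstm3, a glutathione transferase, differed by 1.31, E2f7, a cell cycle repressor, by 1.19, Slc34a2, a phosphate transporter, by 1.11, and Treh, which splits trehalose, by 0.68, all without overlap. Without refed knockout replicate 1, 44 members had non-overlapping knockout arrays in this order and the median difference over members was 0.13. Non-overlap is easier to meet with fewer arrays, so this count is not comparable with the one from all arrays. The share of all features without that replicate was not taken.

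Pdk4 was the member found in the lists of pathway genes. It encodes a kinase that restrains pyruvate use and is normally higher in fasted liver. Here it was 7.36, 7.10 and 6.76 in WT fasted, 8.33, 8.02 and 8.78 in WT refed, 6.33, 6.45 and 6.33 in fasted knockout, and 8.06, 6.97 and 6.53 in refed knockout liver. The fasted knockout values lay below all others, and the refed knockout values lay above them without overlap (difference 0.81, SE 0.34, n = 3 per group, limma adjusted p = 0.49). Of the 10 features of its fatty acid oxidation list, 2 had refed above fasted knockout arrays without overlap and 1 the reverse. Of the 13 of the glucose production list, 1 lay in the first order and 5 in the reverse, and of the 21 of the fatty acid synthesis list 2 and 0. Over all one-symbol features these orders held for 3.23% and 10.8%. The limma test called none of these at an adjusted p under 0.05, as it called no feature.

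Genes of amino acid supply had the smallest median knockout difference of the 3 groups formed after the values were seen. It held Asns (asparagine synthetase), the neutral amino acid transporters Slc1a4 and Slc1a5, and Atf3, a stress-induced transcription factor. None of the 4 had non-overlapping knockout arrays, their median knockout difference was 0.11, against 0.15 over all members, most of which (187 of 226) also had overlapping knockout arrays. All 4 had a fasted knockout mean above the WT fasted mean. Of the 118 one-symbol members 50 (42.4%) had one at or below it, and the rule favoured low WT fasted values.

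Asns was 4.59, 5.17 and 5.66 in WT fasted, 9.87, 8.39 and 7.80 in WT refed, 7.29, 6.05 and 5.77 in fasted knockout, and 6.38, 7.40 and 5.63 in refed knockout liver. All 6 knockout values lay below the 3 WT refed values, and the fasted and refed knockout groups overlapped fully, with a difference of 0.10 (SE 0.60, n = 3 per group, limma adjusted p = 0.98). Slc1a4 was 5.23, 5.60 and 5.58 in WT fasted, 6.59, 6.78 and 6.54 in WT refed, 5.83, 6.16 and 5.8 in fasted knockout, and 6.05, 6.31 and 5.83 in refed knockout liver, so the knockout values lay between the WT groups and overlapped each other. Atf3 was 5.60, 5.67 and 5.72 in WT fasted, 5.91, 6.99 and 6.55 in WT refed, 6.21, 6.21 and 6.85 in fasted knockout, and 6.43, 7.04 and 6.30 in refed knockout liver. It was 1 of 9 one-symbol members for which all 3 fasted knockout arrays lay at or above the lowest WT refed array.

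The promoters of 3 of these genes carry TGATGNAA, the core of the element bound by ATF4 and C/EBP pairs, in the window from 250 bases before to 50 after the gene start (RefSeq, mouse build GRCm38.p6). They are shown because they belong to this group. Every member lay higher in refed WT liver by the rule, and 187 of 226 had overlapping knockout arrays, so these traits do not set the 3 apart. The other one-symbol members with the motif were Ank2, Lor, Mrgprb8, Plek and Tnfaip3. No site was found for Slc1a5. The motif is in capitals, as TGATGNAA or as its other strand TTNCATCA, and sequences run along the strand of the gene.
Asns, chr6:7693160-7693459, minus strand: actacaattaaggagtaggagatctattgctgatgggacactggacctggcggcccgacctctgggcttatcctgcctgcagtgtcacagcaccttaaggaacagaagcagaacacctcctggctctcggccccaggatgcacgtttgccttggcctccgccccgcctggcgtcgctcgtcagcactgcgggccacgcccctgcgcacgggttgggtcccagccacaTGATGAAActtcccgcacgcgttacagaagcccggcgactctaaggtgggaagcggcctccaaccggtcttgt
Slc1a4, chr11:20332664-20332963, minus strand: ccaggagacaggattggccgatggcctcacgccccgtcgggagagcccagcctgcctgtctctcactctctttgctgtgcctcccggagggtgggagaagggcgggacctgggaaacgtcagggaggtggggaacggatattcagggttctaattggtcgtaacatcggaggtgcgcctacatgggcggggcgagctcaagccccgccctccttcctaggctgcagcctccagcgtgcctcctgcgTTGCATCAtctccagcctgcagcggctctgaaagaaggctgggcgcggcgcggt
Atf3, chr1:191183284-191183583, minus strand: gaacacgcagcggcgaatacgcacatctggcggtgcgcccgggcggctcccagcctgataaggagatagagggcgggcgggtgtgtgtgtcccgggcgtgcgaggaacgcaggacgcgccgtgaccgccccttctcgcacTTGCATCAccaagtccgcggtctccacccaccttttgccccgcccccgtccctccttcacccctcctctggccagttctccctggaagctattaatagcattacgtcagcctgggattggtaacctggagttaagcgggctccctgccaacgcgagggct

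Of the 118 one-symbol members, 95 had a promoter window, and 8 of these (8.42%) held TGATGNAA on either strand, against 4.51% of the 27025 genes with a window. The forkhead motif GTAAACA was found in 2 of the 95 (2.11%), against 4.05%, and the DR1 motif, a spaced repeat read by PPAR and RXR pairs, in 0, against 0.0481%. A TGATGNAA site can run into a GTAAACA site, but no member held both. These searches describe letters only. As3mt, an arsenic methyltransferase described further on, was 1 of the 2 members with the forkhead letters, which lie as the other strand TGTTTAC in capitals.
As3mt, chr19:46707208-46707507, plus strand: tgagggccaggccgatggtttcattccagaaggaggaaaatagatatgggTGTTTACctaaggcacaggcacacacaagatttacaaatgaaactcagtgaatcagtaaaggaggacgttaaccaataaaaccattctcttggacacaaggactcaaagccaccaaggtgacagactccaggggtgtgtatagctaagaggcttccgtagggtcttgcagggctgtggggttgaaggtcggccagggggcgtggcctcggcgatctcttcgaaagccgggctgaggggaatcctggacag

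Acute phase and inflammation genes, the last group formed after the values were seen, varied between single livers. The group held 8 genes (Lcn2, Orm2, Saa3, Lrg1, Chil1, Ccl2, Steap4 and Tnfaip3), none with non-overlapping knockout arrays. The refed knockout mean exceeded the fasted one for 7 of the 8, and the median knockout difference was 0.45. Over all one-symbol members these were 75.4% and 0.21. The acute phase genes Orm1 and Hp, looked up after the values were seen, are not members. Their WT differences were 0.11 and 0.22, and their knockout differences 0.02 and 0.05. Lcn2, an iron-binding acute phase protein, was 9.39, 10.12 and 11.37 in WT fasted, 13.71, 12.05 and 12.10 in WT refed, 9.09, 8.97 and 12.70 in fasted knockout, and 11.09, 12.55 and 12.22 in refed knockout liver. Orm2, an acid glycoprotein, was 9.58, 9.31 and 10.23 in WT fasted, 13.62, 11.07 and 10.24 in WT refed, 9.64, 9.19 and 11.91 in fasted knockout, and 10.90, 10.99 and 11.20 in refed knockout liver. In both genes the highest arrays of their groups were WT refed replicate 1 and fasted knockout replicate 3, and the knockout groups overlapped through the latter. WT refed replicate 1 was also the array with the high S100a8. The blood marker list, of which 2 of 4 genes were measured, summed to 7.41 to 10.75 in WT refed liver and to 7.12 to 7.70 in the other groups. Its part in the result was not tested.

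Marco, a scavenger receptor of resident macrophages, was the one member among the cell type markers. It was 5.37, 5.72 and 5.19 in WT fasted, 6.53, 5.91 and 6.34 in WT refed, 5.52, 5.44 and 5.44 in fasted knockout, and 5.31, 6.03 and 6.01 in refed knockout liver, where the groups overlapped. The 7 macrophage features summed to 56.60 to 59.44 in WT fasted, 56.12 to 59.70 in WT refed, 54.42 to 57.31 in fasted knockout and 55.28 to 57.34 in refed knockout liver, overlapping between feeding states in each genotype.

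Cyp17a1, a steroid hydroxylase, had the largest WT difference (3.87) and a knockout difference of -0.16 (SE 1.12, n = 3 per group, limma adjusted p = 0.99). It was 4.87, 8.85 and 7.25 in WT fasted, 11.65, 10.82 and 10.11 in WT refed, 8.03, 9.24 and 7.46 in fasted knockout, and 10.13, 5.89 and 8.23 in refed knockout liver. The refed knockout livers spanned both WT groups. Slc41a2, a magnesium transporter, was 8.94, 8.34 and 10.73 in fasted and 8.42, 10.28 and 10.19 in refed knockout liver, and Cap2, an actin-binding protein, 5.50, 5.58 and 4.99 and then 7.80, 6.57 and 5.07, each with overlapping groups.

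Some members differed between the genotypes in the mean over both feeding states. This comparison, the mean of both knockout groups minus the mean of both WT groups, weights the WT feeding states equally, but it takes its WT mean from the arrays that chose the members. The rule also favours a small spread within the WT groups. That spread enters the test, so its p-values for members can come out too small. With limma, 14 members (6.19%) were lower in knockout liver at an adjusted p under 0.05, against 1.88% of all features, and 7 (3.1%) were higher, against 2.05%. Lower calls no longer outnumbered higher ones when certain single arrays were left out. There were 7 lower and 8 higher without fasted knockout replicate 3, and 8 and 9 without fasted knockout replicate 2. Without WT refed replicate 3 or without refed knockout replicate 3 there were 7 and 7. With any other single array left out lower calls outnumbered higher ones, as by 17 to 9 without refed knockout replicate 1. The share of all features was not taken in these fits. Of the 118 one-symbol members 12 were lower (10.2%), against 2.56% of all one-symbol features. Besides Plin4 (-0.94, SE 0.22, n = 6 per genotype, limma adjusted p = 0.041), these were Gpat3, Cd9, Gpc1, Slc41a3, Tedc2, Morc4, Paqr7, Lgals4, Mmd2, Olfr701 and Olfr703. Knockout minus WT was -0.30 in fasted and -1.58 in refed liver for Plin4, and -0.17 and -1.20 for Cd9. The rule chose low fasted and high refed WT values, which by itself favours a more negative refed value. Whether the genotype difference depended on feeding was therefore not tested.

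Tedc2, a protein of the centriole, was 7.91, 8.25 and 8.68 in WT fasted, 8.95, 9.0 and 9.23 in WT refed, 7.55, 7.73 and 7.61 in fasted knockout, and 7.33, 7.78 and 7.44 in refed knockout liver. All 6 knockout values lay below all 6 WT values, with a mean genotype difference of -1.10 (SE 0.13, n = 6 per genotype, limma adjusted p = 0.0030). Gpat3, which adds the first fatty acid in triglyceride synthesis, was 7.45, 7.90 and 7.69 in WT fasted, 8.21, 8.55 and 8.57 in WT refed, 7.33, 7.31 and 6.31 in fasted knockout, and 6.92, 7.29 and 6.93 in refed knockout liver. It too did not overlap between genotypes (mean difference -1.04, SE 0.18, n = 6 per genotype, limma adjusted p = 0.013), and its refed and fasted knockout arrays overlapped.

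Cd9, a tetraspanin of the cell surface, was 6.50, 7.11 and 6.49 in WT fasted, 8.21, 7.59 and 7.97 in WT refed, 6.77, 6.31 and 6.51 in fasted knockout, and 6.71, 6.84 and 6.63 in refed knockout liver, so no knockout value reached the lowest WT refed value. Lgals4, a galectin, and Paqr7, a progestin receptor, had mean genotype differences of -1.05 and -0.99, and Mmd2 one of -1.42. Olfr701 and Olfr703, olfactory receptor genes with 1 gene between them on chromosome 7, had differences of -1.55 and -1.78. The one-symbol member that was higher was Tubb2a, a beta tubulin, at 4.77, 4.34 and 4.2 in WT fasted, 4.82, 5.60 and 5.42 in WT refed, 5.79, 5.72 and 6.51 in fasted knockout, and 5.51, 6.45 and 6.44 in refed knockout liver. All 3 fasted knockout values lay above the WT refed values, with a mean genotype difference of 1.21 (SE 0.22, n = 6 per genotype, limma adjusted p = 0.017).

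Few named members lay at the refed level in fasted knockout liver. All 3 fasted knockout arrays lay at or above the lowest WT refed array for 29 members (12.8%), of which 9 had 1 symbol: Tubb2a, Tubb6, Atf3, Cox7b, H2-M2, Dab1, Mical2, Ahcyl2 and 2010003K11Rik. All 3 lay at or below the highest WT fasted array for 59 members (26.1%), of which 49 had 1 symbol, Plin4, Cd9, Csad, Elovl3 and Gpat3 among them. The comparison with the WT groups is a description, since the rule set them apart, and 50.9% and 49.6% of all features met these orders.

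The reverse order in knockout liver, with all refed arrays below all fasted ones, was found for 6 members. Cox7b, a subunit of cytochrome c oxidase, was 4.84, 4.50 and 5.12 in WT fasted, 5.99, 5.64 and 5.25 in WT refed, 5.88, 5.71 and 5.62 in fasted knockout, and 5.20, 5.30 and 4.53 in refed knockout liver, so fasted knockout liver lay in the WT refed range. As3mt was 8.24, 7.91 and 7.95 in fasted and 7.75, 7.89 and 7.71 in refed knockout liver, all below the WT refed values of 9.72, 9.08 and 9.24. The others were Trim2, Pgm3, 2010003K11Rik and 1 feature without a symbol.

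Gstp3, a glutathione transferase, had the most negative knockout difference without meeting that order. It was 7.77, 7.71 and 7.31 in WT fasted, 8.18, 8.99 and 8.62 in WT refed, 11.82, 11.80 and 7.13 in fasted knockout, and 8.0, 7.49 and 6.99 in refed knockout liver. Fasted knockout replicates 1 and 2 lay far above all other arrays, and replicate 3 lay among them (difference -2.76, SE 0.99, n = 3 per group, limma adjusted p = 0.45). Without that replicate Gstp3 was the 1 member that passed, with a difference of -4.32 (SE 0.30, n = 2 fasted and 3 refed, limma adjusted p = 0.0021). The array left out there is the fasted one that differed from replicates 1 and 2. Its removal narrows the spread, so this pass is no support for a difference. Cntnap1, a neuronal adhesion protein, differed by -0.47 with overlapping groups.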

How the data were processed

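Liver RNA was labelled by the Nugen method with biotin, per the labels' protocols. The deposited values are log2 signals, 1 per feature and array, made by the authors with RMA and Partek, per the submitters' processing notes. The notes give neither versions nor filters. RMA forces the arrays to one distribution, so a shift shared by most genes would not show. The number of arrays limits precision, and signal over background is unknown.

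Symbols came from the platform annotation, which gave 1 symbol for 14939 of 23238 features, several for 989 and none for 7310. Differences were fitted to all 12 arrays with limma 3.58.1 in R 4.3.3 (group means, eBayes, 8 residual degrees of freedom), with two-sided p adjusted by Benjamini-Hochberg over all features. The procedure was tested on simulated data. The labels do not number replicates, so numbers follow deposit order, and p-values measure the spread between these samples. Named genes were the 12 largest WT differences, the 6 largest and the 6 most negative knockout differences among one-symbol members, list members, and genes a count turned on. Members and lists were chosen with earlier results of these data known. Alternatives changed the minimum difference, overlap rule, scaling, filter, weights and arrays.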

Additional observations from a re-analysis of the deposited data

Results flagged for a closer look

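For 6 members the feeding states were ordered oppositely in the genotypes: every refed array lay above every fasted array in WT liver, and below it in L-FoxO1,3,4 liver. The refed minus fasted differences in L-FoxO1,3,4 liver were -0.72 for Cox7b, -0.66 for 2010003K11Rik, -0.47 for Pgm3, -0.36 for Trim2 and -0.25 for As3mt. The sixth feature had no gene symbol. The difference between the genotypes was not tested, since the WT difference chose these features. The share with this order in L-FoxO1,3,4 liver, 2.65% of members, was below the 9.33% of all features.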

How the results depend on the processing

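No paired analysis was possible because the labels give no replicate numbers. With a minimum WT difference of 0.8 the members numbered 114, their median L-FoxO1,3,4 difference was 0.28, the fasted L-FoxO1,3,4 median from the WT midpoint was -0.39, and 10 had a fasted L-FoxO1,3,4 mean at or above the WT refed mean. With a minimum of 1 these were 58, 0.41, -0.56 and 2, and 15 members had non-overlapping L-FoxO1,3,4 arrays, higher in refed. Allowing WT overlap gave 471 members, 51 with non-overlapping L-FoxO1,3,4 arrays and 96 at or above the WT refed mean. For one-symbol members alone, a choice made after seeing the data, the median from the midpoint was -0.40. Genotype calls rose from 21 to 42 with array weights (15 higher, 27 lower) and 38 at an adjusted p under 0.1 (14 higher, 24 lower).

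Leaving out 1 array at a time gave 296 to 463 members, a median L-FoxO1,3,4 difference of 0.07 to 0.21, 38 to 56 members with non-overlapping L-FoxO1,3,4 arrays, 34 to 117 at or above the WT refed mean, 0 to 1 limma refeeding calls and 14 to 30 genotype calls. The lower genotype calls were no longer more frequent (8 higher and 7 lower, 9 and 8, 7 and 7, 7 and 7) without L-FoxO1,3,4 fasted replicates 3 and 2, WT refed replicate 3 and L-FoxO1,3,4 refed replicate 3. The median from the midpoint ran from -0.2341 to 0.0726. It turned positive (0.0726, over 463 members, with 117 at or above the WT refed mean) without WT fasted replicate 3. The 54, 50 and 56 non-overlapping members came without L-FoxO1,3,4 fasted replicate 1, WT refed replicate 1 and L-FoxO1,3,4 refed replicate 3. With fewer arrays non-overlap is easier to meet. Median centring, cyclic loess, a filter on dim features, trend with robust fitting and a fit of L-FoxO1,3,4 arrays alone kept these results within the limits used.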
